A study of Mus musculus with 16 samples.

Results

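The genes described here are 37 genes of the fast skeletal muscle fibre, measured in biopsies of whole mouse back skin. They were chosen by name, as genes of the sarcomere, of the membranes that release and take up calcium, and of fibre energy metabolism. Earlier results of these data were known when they were chosen, so counts over them are no test of an independent list. Each is represented by 1 probe set, the one with the highest mean over all 16 arrays among those that the platform annotation ties to that gene alone. They are 37 of the 18194 genes named in this way on the array. All 37 lay above a log2 value of 4 in all 16 arrays and were among the 12087 genes tested.

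Mouse back skin carries a thin sheet of striated muscle, the panniculus carnosus, below the dermis and its fat, and a full-thickness biopsy takes it along with the skin. In such a fibre, thick filaments built from myosin pull on thin filaments built from actin, and the units repeat between Z-discs. Contraction starts when a voltage sensor in the surface membrane opens the calcium release channel of the sarcoplasmic reticulum, and it ends when a pump takes the calcium back. Fast fibres use their own isoforms of many of these proteins and draw much of their energy from glycogen and creatine phosphate.

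The mice were female C57/B6, an inbred strain, with no other genotype named in the labels (the sample titles write C57/B7). The day-0 group comprised 9 arrays, from mice 1 to 9 at 8.5 weeks of age, before any treatment. The day-5 groups comprised 2 arrays of skin given the vehicle dimethyl sulfoxide (DMSO; mice 2 and 3), 2 of skin given ruxolitinib (mice 4 and 6) and 3 of skin given tofacitinib (mice 7, 8 and 9), each applied to the skin every day for 4 days. Both drugs inhibit Janus kinases, which carry signals from cytokine receptors to STAT transcription factors, and no dose is stated in the sources used here. Day-5 skin came from mice that had also been biopsied at day 0, so day, repeat biopsy and daily application cannot be told apart in a change from day 0. For mouse 7 at day 5, the description names ruxolitinib but the title, source and treatment labels name tofacitinib, and the array was placed in the tofacitinib group.

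The values were log2 expression values from GCRMA, which corrects background and summarises the probes of a set. Array medians lay between 3.75 and 3.94, and the highest value on an array lay between 13.9 and 14.1. No value among 27 control probe sets for bacterial transcripts exceeded 2.43, which was used here as a background level. Whether such transcripts had been added to the RNA was not examined. Of 7 cardiac muscle genes, Myh6 (a cardiac myosin) and Myl7 (an atrial light chain) were at or under that control level in all 16 arrays, and 3 were tested. In bulk tissue, fewer cells of a type and less RNA per cell cannot be told apart, and the amount of muscle in a biopsy was not measured.

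Muscle genes are known to carry E-boxes, bound by MyoD-family factors, and elements for MEF2 proteins near their start sites. RefSeq promoter sequences (GRCm38.p6) were found for 26 of the 37 genes, and the 250 bases before each start were searched on both strands. The E-box CAGCTG was present in 14 of the 26 genes (53.8%), against 14.7% of 27025 genes with a listed promoter. The looser pattern CANNTG, which contains CAGCTG, was present in 21 (80.8%) against 69.3%. The MEF2 element was present in 5 (19.2%: Myh1, Myh4, Ttn, Pvalb and Pgam2) against 3.42%. The letters TATAAA on the gene's own strand, which the MEF2 element can overlap, were present in 3 (11.5%: Myh1, Myh4 and Acta1) against 8.94%. These matches describe letters in a window and do not show that a site is used.

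The first 3 sequences are shown because the fast myosin heavy chain genes Myh2, Myh1 and Myh4 lie side by side on chromosome 11 and mark different types of fast fibre. Each is given 5′ to 3′ on the plus strand of GRCm38.p6 up to its start site, at chr11:67170777-67171026, chr11:67199852-67200101 and chr11:67237562-67237811. Capitals mark CAGCTG, the MEF2 element and TATAAA.
Myh2: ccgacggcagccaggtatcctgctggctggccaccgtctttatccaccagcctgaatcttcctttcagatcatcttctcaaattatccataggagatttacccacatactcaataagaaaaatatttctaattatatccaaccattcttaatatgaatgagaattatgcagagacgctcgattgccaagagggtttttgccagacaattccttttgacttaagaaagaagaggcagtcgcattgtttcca
Myh1: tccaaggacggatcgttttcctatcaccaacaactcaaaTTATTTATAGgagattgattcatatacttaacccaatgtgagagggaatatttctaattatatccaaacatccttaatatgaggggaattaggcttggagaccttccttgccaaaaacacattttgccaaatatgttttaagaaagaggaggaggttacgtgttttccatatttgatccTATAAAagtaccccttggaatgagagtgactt
Myh4: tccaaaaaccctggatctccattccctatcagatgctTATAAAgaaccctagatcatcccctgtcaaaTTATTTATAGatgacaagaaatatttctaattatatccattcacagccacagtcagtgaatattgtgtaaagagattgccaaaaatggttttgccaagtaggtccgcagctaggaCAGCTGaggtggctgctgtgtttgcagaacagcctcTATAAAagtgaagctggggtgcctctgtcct
Myh1 and Myh4 carried the same MEF2 letters, and Myh2 carried none of the 3 marked patterns in this window. Aligned over these 250 bases, Myh1 and Myh4 were identical at 57.6% of positions, Myh2 and Myh1 at 52.5%, and Myh2 and Myh4 at 52.0%.

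The next 4 windows hold a CAGCTG box and are shown as examples from different roles. Cacna1s, Cav3 and Casq1 serve the membrane and calcium system, and Mylpf encodes a myosin light chain. They lie at chr1:136052661-136052810 (plus strand), chr6:112459355-112459504 (plus), chr1:172219896-172220095 (minus) and chr7:127211458-127211607 (plus), with the same capitals.
Cacna1s: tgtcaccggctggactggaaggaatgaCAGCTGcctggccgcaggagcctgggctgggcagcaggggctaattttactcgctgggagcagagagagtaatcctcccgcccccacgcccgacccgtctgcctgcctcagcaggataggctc
Cav3: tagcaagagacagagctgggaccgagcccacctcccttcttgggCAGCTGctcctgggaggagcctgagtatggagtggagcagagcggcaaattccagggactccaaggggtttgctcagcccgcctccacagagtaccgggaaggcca
Casq1: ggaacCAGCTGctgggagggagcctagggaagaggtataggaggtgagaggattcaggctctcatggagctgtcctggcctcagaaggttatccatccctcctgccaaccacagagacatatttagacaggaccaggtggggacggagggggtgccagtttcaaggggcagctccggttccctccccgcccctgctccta
Mylpf: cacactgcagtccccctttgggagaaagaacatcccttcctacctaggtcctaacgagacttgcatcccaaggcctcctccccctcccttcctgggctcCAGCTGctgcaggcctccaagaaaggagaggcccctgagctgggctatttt
No relation between motif and change was tested.

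Averaged over the 37 genes, the day-0 arrays differed more from each other than the day-5 arrays did. The mean log2 value of the 37 genes was 11.40 in mouse 1, 12.35 in mouse 2, 11.81 in mouse 3 and 12.36 in mouse 4 at day 0. It was 12.37 in mouse 5, 12.56 in mouse 6, 12.21 in mouse 7, 11.59 in mouse 8 and 12.04 in mouse 9, a group mean of 12.08 ± 0.40 (SD, n = 9). At day 5 it was 12.88 and 12.95 in the DMSO arrays of mice 2 and 3, 12.63 and 12.60 in the ruxolitinib arrays of mice 4 and 6, and 12.58, 12.73 and 12.97 in the tofacitinib arrays of mice 7, 8 and 9. All 7 day-5 arrays lay above all 9 day-0 arrays, but the lowest of them, tofacitinib mouse 7, stood only just above the highest day-0 array, mouse 6. The 3 day-5 groups overlapped in part: the DMSO arrays lay above both ruxolitinib arrays, and the tofacitinib arrays spanned from below the ruxolitinib arrays to above the DMSO arrays.

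**Figure D1:**
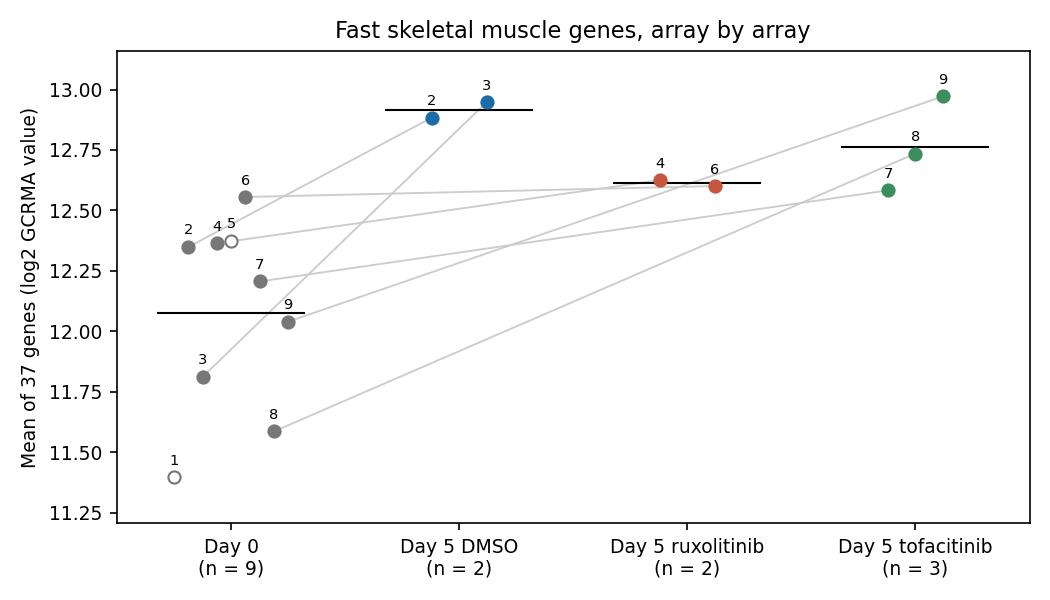
Mean log2 GCRMA value of the 37 fast muscle genes on each of 16 arrays (y axis, which does not start at 0), by group (x axis), with the mouse number above each point, a black bar for the group mean and a grey line joining the arrays of 1 mouse. Open points are mice 1 and 5, which have a day-0 array only. The line of mouse 6 (12.56 to 12.60) is nearly flat, while those of mice 3, 8 and 9 climb steeply.

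The genes moved between day-0 arrays as a block. The lowest of the 9 day-0 values came from mouse 1 for 28 of the 37 genes and from mouse 8 for another 7, whereas these mice gave the lowest value of 33.5% of all genes tested. The highest day-0 value came from mouse 6 for 26 of the 37 genes, against 17.6% of all genes tested. The first principal component of deviations from the group means held 83.9% of the variance of the 37 genes and 27.4% of the variance of all genes tested. The day-0 SD of a gene had a median of 0.39 over the 37 genes and 0.26 over all genes tested, and the widest day-0 range was 3.18, in Cav3.

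Several lists of genes of other skin layers differed between the day-0 arrays along with the muscle genes. The 4 day-0 arrays lowest in the muscle mean (mice 1, 8, 3 and 9) were also the 4 lowest in the mean of 10 adipocyte genes (6.11, 7.36, 7.37 and 7.88, against 8.72 to 9.40 in the other arrays). They were the 4 lowest in the mean of 8 smooth muscle genes and of 9 endothelial genes too, and the 4 highest in the mean of 9 basal keratinocyte genes (12.09, 12.19, 12.27 and 12.19, against 11.84 to 12.04). The mean of 9 fibroblast genes did not follow this order: it was lowest in mice 1 and 9 (6.42 and 7.39), but 8.29 in mouse 3 and 8.37 in mouse 8, above 7.76 in mouse 6 and 8.08 in mouse 7. Mouse 1 also had the largest gap between 3′ and 5′ control probe sets for Gapdh and Actb, a measure of RNA quality, at 1.78 log2 units, against 1.24 to 1.48 on the other 15 arrays. The part of these differences in the muscle signal was not tested.

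The day-0 level was not the same among the mice that later formed the day-5 groups. The day-0 means of the 37 genes ran from 11.40 to 12.35 in the 3 mice labelled for DMSO, from 12.36 to 12.56 in the 3 labelled for ruxolitinib and from 11.59 to 12.21 in the 3 labelled for tofacitinib. The ruxolitinib mice thus started above all the others before any drug was applied. Mouse 1 and mouse 5 belong to the first and second of these sets.

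**Figure D2:**
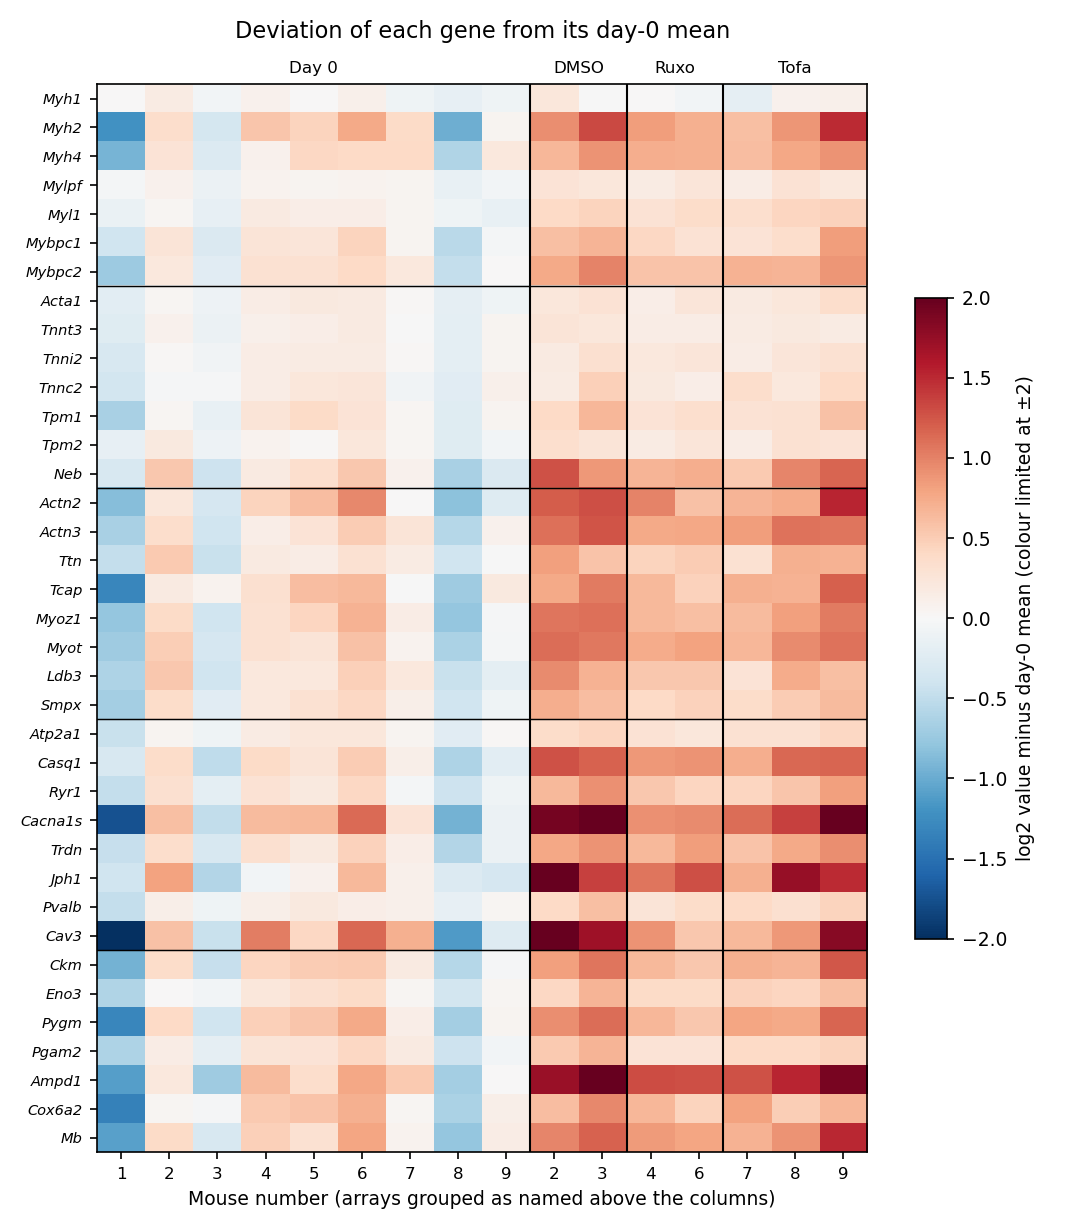
Log2 value of each of the 37 genes (rows, in blocks by role) on each of 16 arrays (columns, by group and mouse) minus the gene's day-0 mean, with red above and blue below that mean and colours limited at ±2. Day-0 mice 1 and 8 are blue in nearly every row, the 7 day-5 columns are red in nearly every row, and the row of Myh1 is pale throughout.

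Against day 0, the mean of the 3 day-5 groups was higher for 36 of the 37 genes and lower for 0 by the limma fit (adjusted p under 0.05 over all genes tested), where 29.7% of all genes tested were called higher and 34.8% lower. The count of lower calls was 0 at an unadjusted p under 0.05 as well. The median log2 difference was 0.65 for the 37 genes and -0.03 for all genes tested. The exception was Myh1, at 0.03 ± 0.07 (SE). The arrays of the 2 days did not overlap for 13 of the 37 genes, where 8.48% of all genes tested had all day-5 arrays above all day-0 arrays. When the mouse was a fixed block, 30 genes passed, the 6 lost being Mylpf, Acta1, Tnnt3, Tnni2, Tnnc2 and Tpm2. Calls in either direction over all 12087 genes were 7800 in the reported fit and 6807 with the fixed block. Under the alternatives run, between 26 and 36 of the 37 genes were called higher.

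Within the 7 mice sampled on both days, the size of the rise varied widely. Of the 37 genes, 37 were higher at day 5 in mice 2 and 3 (DMSO), with median differences of 0.41 and 1.08. In the ruxolitinib mice, 34 were higher in mouse 4 and 23 in mouse 6, with medians of 0.22 and 0.02. In the tofacitinib mice, 35 were higher in mouse 7 and 37 in mice 8 and 9, with medians of 0.42, 1.16 and 0.87. Of all genes tested, 47.8% and 46.2% were higher at day 5 in mice 2 and 3, and 49.1% and 41.7% in mice 4 and 6. The shares in mice 7, 8 and 9 were 53.4%, 46.5% and 46.4%. The median difference of all genes tested lay between -0.13 (mouse 6) and 0.05 (mouse 7). Among these 7, mice 8, 3 and 9 had the lowest day-0 values and the largest differences. Mouse 6 had the highest day-0 value and the smallest difference. Each difference contains the day-0 value itself, so this order is partly built in and is no separate result about the rise. In all, 22 genes were higher at day 5 in 7 of 7 mice, 13 in 6 mice, and Myh1 and Cav3 in 4. The matching shares of all genes tested were not computed.

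Of the thick filament, 6 of 7 genes rose, where 29.7% of all genes tested were called higher, with a median log2 difference of 0.49. Myh2 encodes the myosin heavy chain of type 2A fibres, fast fibres rich in mitochondria. Its log2 value ran from 10.87 to 12.85 over the day-0 arrays, with a median of 12.43, and was 13.01 and 13.41 in the DMSO arrays, 12.92 and 12.79 in the ruxolitinib arrays and 12.69, 12.97 and 13.57 in the tofacitinib arrays. Day-0 mouse 6 reached into the range of the ruxolitinib and tofacitinib arrays, and the DMSO arrays lay above all day-0 arrays. Myh2 rose by 0.95 ± 0.27 on the log2 scale (1.93-fold, adjusted p = 0.00698).

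Myh4 encodes the heavy chain of type 2B fibres, the fastest. Its day-0 values ran from 12.16 to 13.51 with a median of 13.30, and its day-5 values were 13.76 and 13.99 (DMSO), 13.82 and 13.81 (ruxolitinib) and 13.72, 13.87 and 13.99 (tofacitinib). All day-5 arrays lay above all day-0 arrays, close to the top of the arrays' range. Myh4 rose by 0.75 ± 0.19 (1.68-fold, adjusted p = 0.00287).

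Myh1 encodes the heavy chain of type 2X fibres. Its brightest probe set, whose probes can also match other genes, ran from 13.24 to 13.57 at day 0, and was 13.63 and 13.39 (DMSO), 13.41 and 13.35 (ruxolitinib) and 13.22, 13.49 and 13.50 (tofacitinib). The groups overlapped throughout, and the difference had a 95% interval of -0.13 to 0.18. Of the 3 kept probe sets of Myh1, only 1 was called. The second brightest ran from 12.66 to 13.45 at day 0 and from 12.58 to 13.58 at day 5, and did not pass. The dimmest, with a day-0 mean of 6.14, rose by 2.50 ± 0.26 on the log2 scale (adjusted p = 1.54e-06 in limma). The result for Myh1 thus depends on the probe set read. A second probe set of Myh4, with a day-0 mean of 9.53, likewise rose by 2.44 ± 0.42. The 3 heavy chain genes are close copies, and the arrays may not separate them.

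The other thick filament genes rose too. Mylpf, the fast regulatory light chain, rose by 0.22 ± 0.06 (adjusted p = 0.0843 when the mouse was a fixed block, where it did not pass) and Myl1, the fast essential light chain, by 0.39 ± 0.07, and all day-5 arrays of each lay above all day-0 arrays. Mybpc2, the fast form of myosin binding protein C, which ties myosin to the thick filament, rose by 0.73 ± 0.15. Mybpc1, the slow form of that protein, which fast fibres also carry, rose by 0.49 ± 0.14.

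Of the thin filament, 7 of 7 genes rose, where 29.7% of all genes tested were called higher, with a median of 0.24. With the mouse as a fixed block, however, only 2 of them, Neb and Tpm1, passed. The adjusted p in that limma fit was 0.0841 for Acta1, 0.166 for Tnnt3, 0.0986 for Tnni2, 0.068 for Tnnc2 and 0.111 for Tpm2. Acta1, the skeletal muscle actin, ran from 13.05 to 13.45 at day 0 with a median of 13.28, and was 13.49 and 13.56 (DMSO), 13.40 and 13.50 (ruxolitinib) and 13.44, 13.48 and 13.62 (tofacitinib). It rose by 0.23 ± 0.08 (adjusted p = 0.0186), with overlap between the days. The fast troponins, which make the filament respond to calcium, rose by 0.18 ± 0.08 (Tnnt3), 0.23 ± 0.08 (Tnni2) and 0.26 ± 0.10 (Tnnc2), and 6 of these 7 genes, all but Neb, had a day-0 mean of 13 or more. Neb, the giant protein along the thin filament, was the exception in size, at 0.88 ± 0.18. Of the tropomyosins, Tpm2 rose by 0.24 ± 0.08 and Tpm1 by 0.41 ± 0.13, but a second probe set of Tpm1, a gene also used outside muscle, fell by 0.68 on the log2 scale (SE 0.14, adjusted p = 0.00074).

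Of the Z-disc genes and titin, 8 of 8 rose, where 29.7% of all genes tested were called higher, with a median of 0.80. Actn3, the alpha-actinin of fast fibres that anchors actin at the Z-disc, ran from 11.42 to 12.58 at day 0 with a median of 12.20, and was 13.18 and 13.33 (DMSO), 12.82 and 12.85 (ruxolitinib) and 12.91, 13.15 and 13.15 (tofacitinib). All day-5 arrays lay above all day-0 arrays, and Actn3 rose by 0.97 ± 0.17 (1.97-fold, adjusted p = 0.000147). Actn2, the alpha-actinin of all striated fibres, rose by 1.0 ± 0.25 with overlapping arrays. The Z-disc proteins Myot (myotilin) and Myoz1 (a calcineurin-binding protein of fast fibres) rose by 0.91 ± 0.18 and 0.84 ± 0.20, Tcap, which caps titin, by 0.76 ± 0.24, and Ldb3 by 0.62 ± 0.17. Ttn, titin, and Smpx, a small muscle protein, rose by 0.57 ± 0.15 and 0.52 ± 0.15.

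Of the genes of calcium handling and membranes, 8 of 8 rose, where 29.7% of all genes tested were called higher, with a median of 0.90. Cacna1s, the pore-forming voltage sensor of the surface membrane, ran from 6.94 to 9.81 at day 0 with a median of 8.96, and was 10.59 and 10.84 (DMSO), 9.59 and 9.62 (ruxolitinib) and 9.79, 10.05 and 11.23 (tofacitinib). The DMSO arrays lay above all day-0 arrays, while both ruxolitinib arrays and tofacitinib mouse 7 lay below the highest of them, mouse 6. Cacna1s rose by 1.52 ± 0.36 (2.87-fold, adjusted p = 0.00194).

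Jph1, junctophilin 1, holds the surface membrane against the reticulum. Its day-0 values ran from 8.0 to 9.39 with a median of 8.54, and its day-5 values were 10.60 and 9.97 (DMSO), 9.67 and 9.89 (ruxolitinib) and 9.31, 10.34 and 10.08 (tofacitinib). Only tofacitinib mouse 7 among the day-5 arrays fell inside the day-0 range, and Jph1 rose by 1.39 ± 0.21 (2.62-fold, adjusted p = 4.94e-05).

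Casq1, the calcium-binding protein inside the reticulum of fast fibres, ran from 10.80 to 11.92 at day 0 with a median of 11.54. At day 5 it was 12.69 and 12.60 (DMSO), 12.29 and 12.31 (ruxolitinib) and 12.14, 12.56 and 12.57 (tofacitinib). No day-5 array reached down into the day-0 range, and Casq1 rose by 1.04 ± 0.17 (2.05-fold, adjusted p = 9.39e-05).

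Cav3, the caveolin of muscle membranes, was the most variable of the 37 genes. It ran from 5.39 to 8.58 at day 0 with a median of 7.84, and was 9.53 and 9.12 (DMSO), 8.34 and 7.97 (ruxolitinib) and 8.08, 8.29 and 9.26 (tofacitinib). Both ruxolitinib arrays and the tofacitinib arrays of mice 7 and 8 lay inside the day-0 range, and Cav3 rose by 1.21 ± 0.40 (2.32-fold, adjusted p = 0.0165). Within mice it was higher by 1.52, 2.14, 2.0 and 2.08 in mice 2, 3, 8 and 9 and differed by -0.12, -0.61 and -0.07 in mice 4, 6 and 7.

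Trdn, triadin, which links calsequestrin to the release channel, rose by 0.77 ± 0.15, and its 6 kept probe sets rose by 0.77 to 2.88. Ryr1, the release channel itself, rose by 0.61 ± 0.14. The pump Atp2a1 (SERCA1) and the soluble calcium buffer Pvalb (parvalbumin), which speed relaxation in fast fibres, rose by 0.33 ± 0.10 and 0.40 ± 0.09.

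Of the energy metabolism genes, 7 of 7 rose, where 29.7% of all genes tested were called higher, with a median of 0.79. Ampd1, the muscle AMP deaminase, had the largest difference of the 37 genes. It ran from 9.09 to 10.97 at day 0 with a median of 10.41, and was 11.93 and 12.25 (DMSO), 11.50 and 11.49 (ruxolitinib) and 11.47, 11.73 and 12.11 (tofacitinib). All day-5 arrays lay above all day-0 arrays, and Ampd1 rose by 1.57 ± 0.26 (2.97-fold, adjusted p = 0.000106).

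Ckm, the muscle creatine kinase that rebuilds ATP from creatine phosphate, rose by 0.79 ± 0.21, with no overlap between the days. Pygm, which breaks down glycogen, rose by 0.83 ± 0.25. The glycolytic enzymes Eno3 and Pgam2 rose by 0.47 ± 0.13 and 0.42 ± 0.14. Mb, the oxygen-binding myoglobin, and Cox6a2, a muscle subunit of cytochrome oxidase, rose by 0.96 ± 0.24 and 0.65 ± 0.24, so that genes of glycolysis and of oxidative metabolism rose alike in direction. By fibre class, 17 of 18 genes typical of fast fibres rose with a median of 0.45, and 19 of 19 genes shared with slow or cardiac fibres with a median of 0.76. Of all genes tested, 29.7% were called higher. In the fixed-block fit 13 of 18 and 17 of 19 passed, where 6807 of all 12087 genes were called in either direction. More of the fast-fibre genes than of the shared genes had a day-0 mean of 13 or more, and brighter probe sets changed less, as described below. A difference between the classes was not tested.

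The size of the difference fell with the brightness of the probe set. The 10 genes with a day-0 mean of 13 or more had a median difference of 0.24, the 14 between 12 and 13 one of 0.59, the 9 between 11 and 12 one of 0.88, and the 4 below 11 one of 1.46. All genes tested in the same ranges had medians of -0.10, -0.00, -0.03 and -0.04. The same held within genes: of 14 genes with more than 1 kept probe set, 13 had a dimmer probe set with a larger difference than the brightest one. Of the 64 kept probe sets, 59 rose, 1 fell and 4 did not pass. These calls came from a separate fit over all 20992 kept probe sets, and the share of those called higher was not computed. The spread exceeded 1 log2 unit in 7 genes, Mybpc1, Myh1, Myh4, Myoz1, Tpm1, Trdn and Ttn. Whether the bright probe sets were near saturation was not tested, and sizes of change are therefore not compared between genes as changes in RNA.

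**Figure D3:**
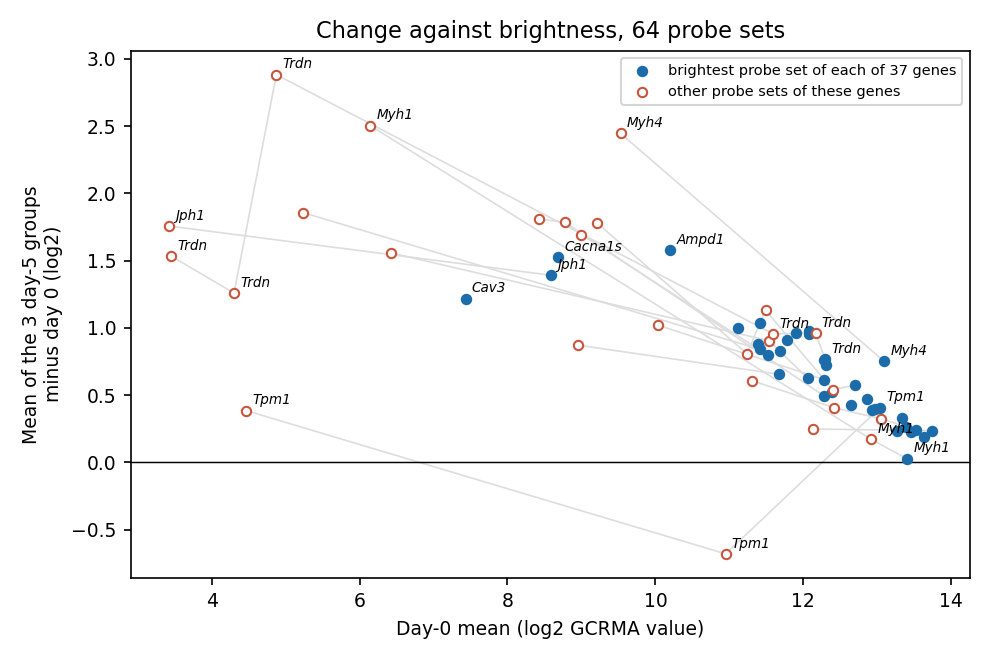
Log2 difference between the mean of the 3 day-5 groups and day 0 (y axis) against the day-0 mean log2 value (x axis) for 64 kept probe sets of the 37 genes. Filled points are the probe set that stands for each gene, open points the other probe sets, and grey lines join probe sets of 1 gene. Filled points tend to fall as brightness rises, though not in strict order. Ampd1 (1.57) is the highest of them and Myh1 (0.03) the lowest. The second probe set of Tpm1 (-0.68) is the only point clearly below 0.

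Against day 0, the DMSO group was higher for 28 of the 37 genes and lower for 0, where 22.2% of all genes tested were called higher and 28.9% lower, and its median was 0.79 against -0.05. Both DMSO arrays lay above all day-0 arrays for 34 genes, where 21.6% of all genes tested did so, the exceptions being Cox6a2, Myh1 and Tnnc2. The 9 genes that did not pass included 5 of the thin filament (Acta1, Tnnt3, Tnni2, Tnnc2 and Tpm2), with differences of 0.24 to 0.32. The largest differences were 2.03 ± 0.57 in Cacna1s (adjusted p = 0.00842), 1.92 ± 0.40 in Ampd1 (adjusted p = 0.00149) and 1.89 ± 0.64 in Cav3 (adjusted p = 0.0227). When the mouse was a fixed block, 16 genes passed, with the 3′ to 5′ gap as a covariate 11, and without mouse 2 or mouse 3 of the DMSO group 7 and 6. Calls in either direction over all 12087 genes were 6178 in the reported fit and 3701, 4889, 3470 and 4001 under these settings.

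Against day 0, the tofacitinib group was higher for 27 of the 37 genes and lower for 0, where 22.7% of all genes tested were called higher and 27.4% lower, and its median was 0.67 against -0.02. All 3 tofacitinib arrays lay above all day-0 arrays for 15 genes, where 12.9% of all genes tested did so. The largest differences were 1.70 ± 0.48 in Cacna1s (adjusted p = 0.00934), 1.58 ± 0.34 in Ampd1 (adjusted p = 0.00187) and 1.33 ± 0.28 in Jph1 (adjusted p = 0.00139). Cav3, at 1.13 ± 0.54, did not pass (adjusted p = 0.092), but passed when the mouse was a fixed block (1.34 ± 0.41, adjusted p = 0.0403). In that fixed-block fit 23 of the 37 genes passed. With the 3′ to 5′ gap as a covariate 16 genes passed, without mouse 8 of the group 15, without mouse 9 of the group 8, and without mouse 7, whose labels conflict, 29. Calls in either direction over all genes were 6055 in the reported fit, 4768 with the fixed block, and 5202, 4663, 3969 and 6344 under the other settings in that order.

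Against day 0, the ruxolitinib group was higher for 6 of the 37 genes and lower for 0. Over all genes tested, 12.5% were called higher and 21.4% lower, so the count of 6 was close to the general share. The median difference was 0.51, against -0.03 for all genes tested. The 6 were Myl1 (0.32 ± 0.12), Actn3 (0.73 ± 0.26), Casq1 (0.84 ± 0.26), Trdn (0.70 ± 0.24), Jph1 (1.16 ± 0.33) and Ampd1 (1.23 ± 0.40), with adjusted p from 0.0137 to 0.0483, and they also passed in both other groups. Both ruxolitinib arrays lay above all day-0 arrays for 17 genes, where 17.1% of all genes tested did so. With the mouse as a fixed block 0 of the 37 passed and the median was 0.11, and against the day-0 arrays of the ruxolitinib mice alone 0 passed and the median was 0.12. Without mouse 4 or mouse 6 of the group 0 passed, and without day-0 mouse 9 3 passed. Calls in either direction over all genes were 4104 in the reported fit, 1324 with the fixed block, 2985 against the same mice's day-0 arrays, 2315 and 1999 without mouse 4 or mouse 6, and 3794 without day-0 mouse 9.

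**Figure D4:**
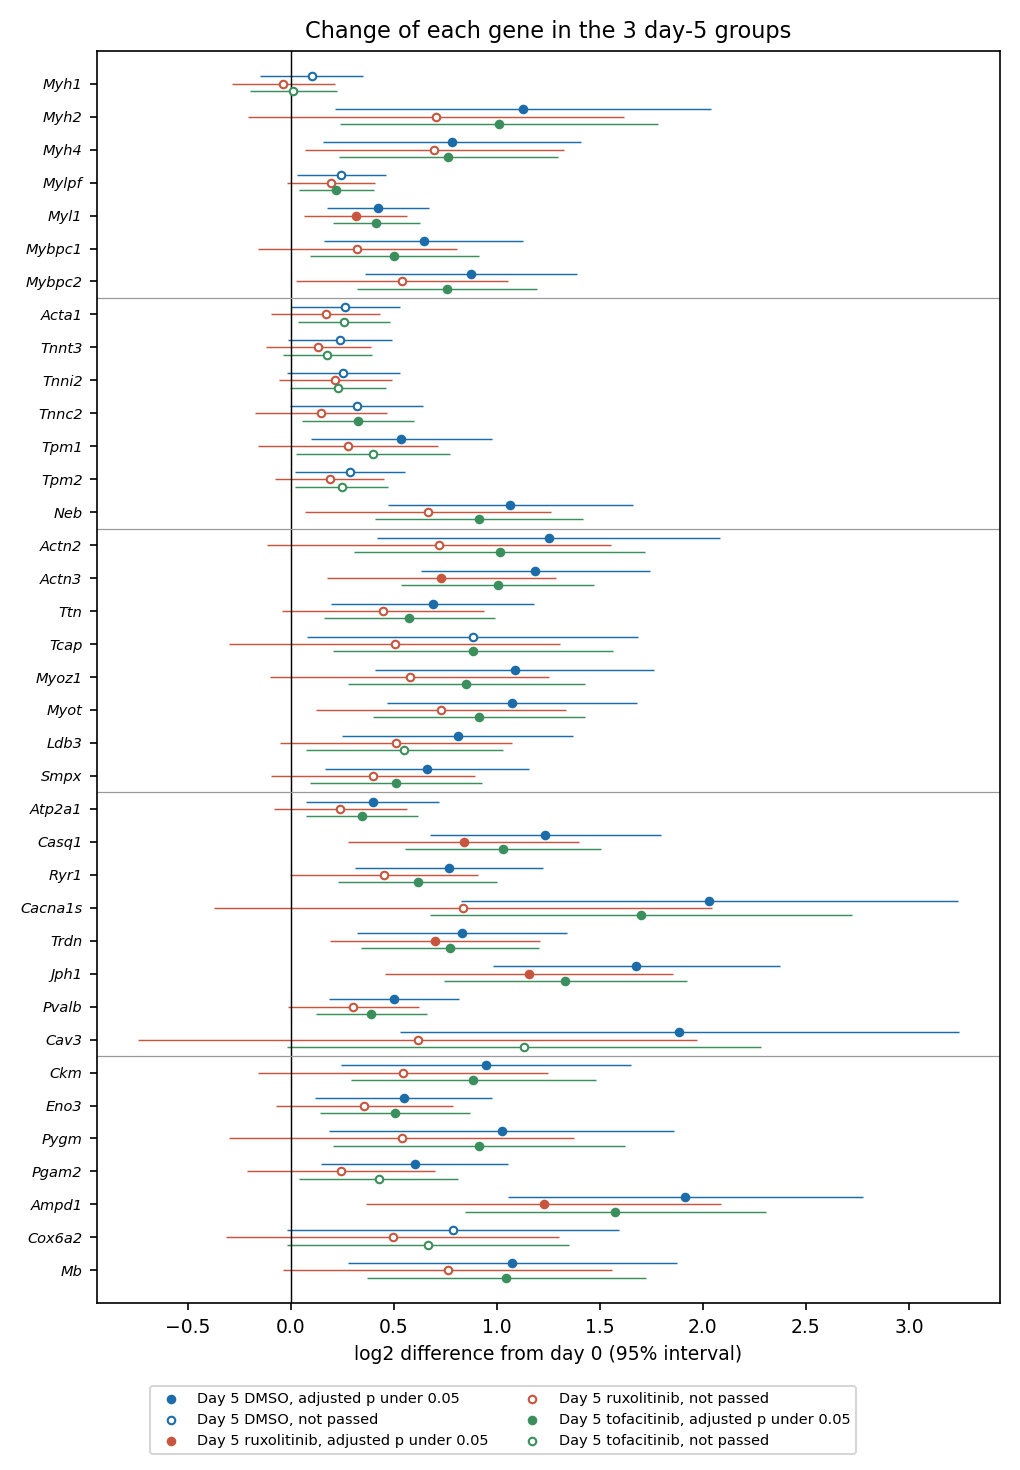
Log2 difference from day 0 with its 95% interval (x axis) for each of the 37 genes (y axis, in blocks by role) in the DMSO, ruxolitinib and tofacitinib groups at day 5. Filled points passed at an adjusted p under 0.05 (28 for DMSO, 6 for ruxolitinib and 27 for tofacitinib), and open points did not. Ruxolitinib points lie to the left of the others in every row, with intervals that overlap those of the other groups.

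The 3 changes share their day-0 arrays. The fitted difference from day 0 was smallest with ruxolitinib for 37 of 37 genes and largest with DMSO for 35, and an order that recurs over genes moving as a block on 7 arrays is a description of those arrays. The 3 pairs of day-5 groups were therefore compared directly, all at day 5, with doses unknown. Ruxolitinib against DMSO gave 0 of 37 genes past the threshold, where 0.521% of all genes tested were called in either direction, and a median difference of -0.31. Tofacitinib against DMSO gave 0 of 37 (0.165% of all genes tested) and a median of -0.12, and tofacitinib against ruxolitinib gave 0 of 37 (0.0248%) and a median of 0.18. In this limma fit, with the mouse as a random block, 0 of 37 genes had an unadjusted p under 0.05 in any of the 3 pairs.

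The intervals were wide, so these comparisons do not show that the groups are alike. The median lower and upper 95% bounds over the 37 genes were -0.95 and 0.37 for ruxolitinib against DMSO, -0.74 and 0.47 for tofacitinib against DMSO, and -0.46 and 0.75 for tofacitinib against ruxolitinib. The widest case was Cav3 with ruxolitinib against DMSO, with an interval from -3.03 to 0.49. With the mouse as a fixed block, each day-5 array is set against the same mouse at day 0. That fit compares changes from day 0 rather than day-5 levels. Its median was -0.66 for ruxolitinib against DMSO and 0.59 for tofacitinib against ruxolitinib, again with 0 of 37 genes past the threshold after adjustment. In that limma fit, 6 genes had an unadjusted p under 0.05 for ruxolitinib against DMSO, all lower with ruxolitinib, 7 for tofacitinib against ruxolitinib, all higher with tofacitinib, and 0 for tofacitinib against DMSO. The share of all genes tested under that unadjusted threshold was not computed. These counts of genes moving as a block are therefore not read as a difference between the drugs. The smallest adjusted p of the 37 genes was 0.267 for ruxolitinib against DMSO and 0.386 for tofacitinib against ruxolitinib. After adjustment, 0 of all 12087 genes were called in any of the 3 pairs in that fit. The ruxolitinib mice had the higher day-0 values given above.

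Other skeletal muscle genes changed in the same direction. Of 50 further genes of the fibre, 43 were tested and 40 were higher in the mean of the 3 day-5 groups, with a median of 1.20. Over all genes tested, 29.7% were called higher in that comparison. Among them Trim63, a ubiquitin ligase that acts on muscle proteins, rose by 2.44 ± 0.35, and Phka1, a subunit of the kinase that activates Pygm, by 1.99 ± 0.28. Of 18 slow and developmental isoforms, 16 were tested and 16 were higher, with a median of 2.31. Myl2, the slow and ventricular light chain, lay between 2.61 and 4.79 at day 0 and between 6.54 and 10.81 at day 5, and rose by 4.98 ± 0.54 (adjusted p = 2.47e-06). Sln, sarcolipin, which regulates the calcium pump and was listed with the cardiac genes, rose by 2.76 ± 0.42, whereas the cardiac troponins Tnnt2 and Tnni3 had differences of -0.76 ± 0.17 and -0.92 ± 0.27. Mybph, a relative of myosin binding protein C, lay between 5.11 and 7.01 at day 0 and between 9.67 and 11.72 at day 5, and rose by 4.37 ± 0.27.

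The mean day-0 level of the 16 slow and developmental genes lay between 4.22 and 5.58 over the arrays, against 11.40 to 12.56 for the 37 genes, so the brightness of the probe sets differs between the lists along with their change. Of 8 satellite cell and myoblast genes, 6 were tested and 3 were higher in the mean of the 3 day-5 groups, where 29.7% of all genes tested were. With so few genes, that count is not read as a result about these cells. The 3 were Myf5 (0.81 ± 0.19), Cdh15 (0.81 ± 0.24) and Pax7 (0.70 ± 0.27). Mymk, which drives myoblast fusion, was at or under the control level in all 16 arrays. A difference between lists was not tested.

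**Figure D5:**
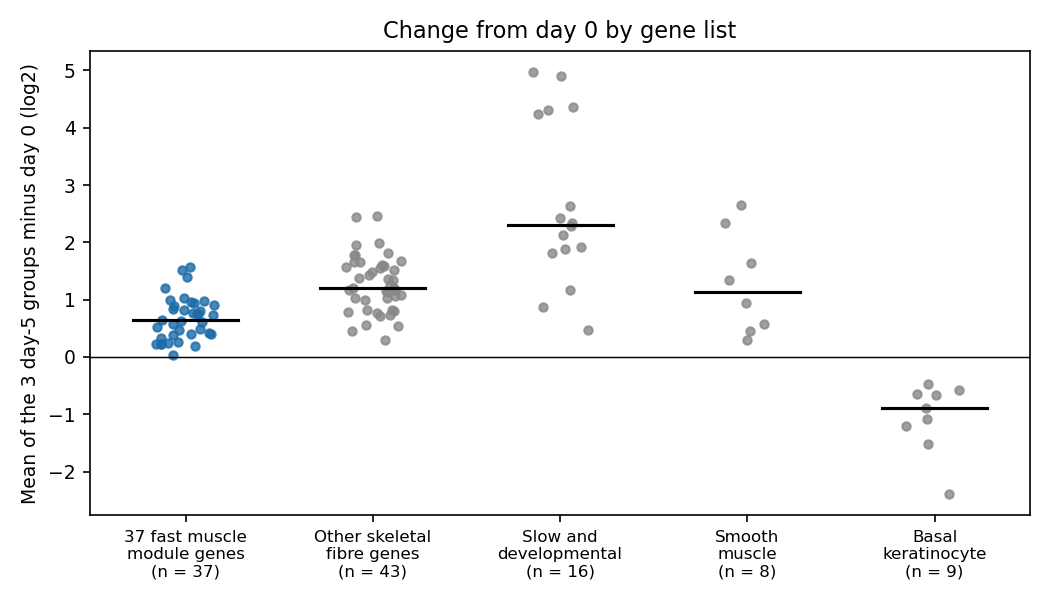
Log2 difference between the mean of the 3 day-5 groups and day 0 (y axis) for the tested genes of 5 lists (x axis), 1 point per gene with a bar at the median. The medians are 0.65 for the 37 fast muscle genes, 1.20 for other fibre genes, 2.31 for slow and developmental isoforms, 1.14 for smooth muscle genes and -0.88 for basal keratinocyte genes.

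Genes of other skin layers moved alongside the muscle genes. In the mean of the 3 day-5 groups, 29.7% of all genes tested were called higher and 34.8% lower. Of the tested genes, 6 of 8 smooth muscle, 6 of 9 fibroblast, 7 of 10 adipocyte and 9 of 9 endothelial genes were higher. Their medians were 1.14, 1.64, 1.15 and 1.59, while 9 of 9 basal keratinocyte genes were lower, with a median of -0.88. The mean level of the 10 adipocyte genes ran from 6.11 to 9.40 over the day-0 arrays and from 9.43 to 10.07 over the day-5 arrays, without overlap. The mean level of the 9 basal keratinocyte genes ran from 11.84 to 12.27 at day 0 and from 10.81 to 11.26 at day 5. How much of each skin layer a biopsy held was not measured, and its part in the muscle result was not tested.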

How the data were processed

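RNA of whole dorsal skin was amplified with a NuGEN kit and biotin-labelled, per the labels, and measured on Affymetrix mouse arrays. For each probe set the authors deposited a log2 value computed with GCRMA, per the submitters' processing notes. The GCRMA version and whether the arrays were processed jointly are not given here. Raw scanner values were not used here, so depth has no equivalent and the number of arrays limits the precision.

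The platform annotation covered 35890 of 45101 probe sets (34958 naming 1 gene and 932 several) and left 9211 unnamed. Gene IDs were matched to the RefSeq table for 34754, which changed 0 symbols. Probe sets above log2 4 in at least 2 arrays were kept (20992), and each of 12087 genes was tested on its brightest kept probe set. Each member's probe set had the highest mean of its 1-symbol probe sets.

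Genes were fitted with limma 3.58.1 (R 4.3.3): 4 group means on all 16 arrays, the mouse as a random block (consensus correlation 0.0982) and empirical Bayes. P values were Benjamini-Hochberg adjusted over all genes within each of 7 comparisons, with a threshold of 0.05. Errors are standard errors unless marked SD. The pairing comes from the labels (7 mice with 2 arrays). Deviations of a mouse's 2 arrays correlated at -0.183 to 0.178, over 0.1 in 2 of 7 pairs. P values measure the spread between arrays of a group, pooled over the 4 groups, in which mouse, biopsy and array cannot be separated. With the mouse as a fixed block they measure the spread within mice. The mice were few.

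The members and the lists were chosen with earlier results of these data known. The text names all 37 members, their other probe sets where changes differ by over 1 log2 unit, and at most 4 genes with the smallest p from each other list. Promoters came from RefSeq (GRCm38.p6). The scripts were tested on simulated data. The alternatives changed the block, the day-0 reference, the samples in the fit, the filter, the probe set, the scaling, a floor and an RNA quality covariate, or left out 1 array.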

Additional observations from a re-analysis of the deposited data

How the results depend on the processing

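With the mouse as a fixed replicate block, each change was drawn only from the 7 mice paired across days. The count of members higher than day 0 was then 16 for DMSO, 0 for ruxolitinib and 23 for tofacitinib, and the ruxolitinib median was 0.11. Between day-5 groups, this fit compares the changes from day 0 and not the day-5 levels, so day-0 gaps between the mice enter. Its medians were -0.66 for ruxolitinib minus DMSO and 0.59 for tofacitinib minus ruxolitinib. Without any block no count moved by over 1.5 times. Against the day-0 arrays of its own mice, ruxolitinib had 0 members higher and a median of 0.12. With the 3′ to 5′ gap as a covariate, 11 members were higher for DMSO and 16 for tofacitinib. With the dimmest kept probe set, an alternative chosen after seeing the data, 10 were higher for ruxolitinib, and Myh1 with ruxolitinib, at -0.04 on its brightest probe set, was 2.39 (adjusted p = 0.000389 in limma), against 0.81 with the mean of its probe sets (adjusted p = 0.00812).

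Leaving out 1 array at a time gave 6 to 31 members higher for DMSO, 0 to 8 for ruxolitinib, 8 to 34 for tofacitinib and 30 to 36 for the mean of the 3 groups, with medians of 0.71 to 0.89, 0.39 to 0.59, 0.56 to 0.76 and 0.56 to 0.74. The lowest counts came without DMSO mouse 3, without either ruxolitinib mouse and without tofacitinib mouse 9. Where a group was left with 1 array, that array was assumed to vary like the other groups. Between day-5 groups the medians ran from -0.38 to -0.19 (ruxolitinib minus DMSO), -0.22 to 0.01 (tofacitinib minus DMSO) and 0.05 to 0.33 (tofacitinib minus ruxolitinib). No member was called lower than day 0 under any setting, and the remaining settings (filters, floor, scaling, samples in the fit) kept every count within 1.5 times. The fit of only the compared groups gave no value for the mean of the 3 groups. Groups of 2 or 3 arrays and probe sets near the top of the range limit what these counts can show.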
